A study of Mus musculus with 6 samples.

Results

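The series measured RNA in mouse 2-cell embryos under 3 conditions, and each condition was sequenced as 2 libraries that carry the number 1 or 2 in their names. The comparison described here sets the 3 libraries numbered 2 against the 3 numbered 1, paired by condition, so that it uses all 6 libraries of the series. Of 26982 genes in the deposited gene table, 17638 had enough counts to be tested. The labels do not say what a library number marks, nor that libraries 1 and 2 came from separate embryo collections. The p-values below therefore measure only the spread between these libraries.

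The non-injected group held uninjected embryos. The Suv39h1mut and Suv39h1wt groups held embryos microinjected as zygotes, 18 h after the hormone hCG that times ovulation, with mRNA at 0.6 ug/ul that the labels name Suv39h1mut or Suv39h1wt. Suv39h1 is a histone H3 lysine 9 methyltransferase. Embryos were cultured in KSOM, an embryo culture medium. Strain, sex and the number of embryos per library are not stated in the labels. Every library was made the same way on paper: 2 ng of unpurified total RNA was copied with random and poly-T primers and amplified linearly before sequencing.

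At the 2-cell stage the mouse embryo still lives partly on RNA stored by the oocyte while it switches on its own genome. Total RNA of such an embryo is dominated by ribosomal RNA, the structural core of ribosomes, and oocyte-derived mitochondria add their own ribosomal RNAs and messenger RNAs. Cells also hold short structural RNAs without a poly(A) tail. Among them are 7SK, which holds a transcription elongation factor inactive, 7SL, the RNA of the particle that targets proteins to the endoplasmic reticulum, and RNase MRP RNA, which takes part in ribosomal RNA processing.

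Gene counts summed to 33.5 to 48.6 M per library. Outside the mitochondrial genome they came to 19.9 to 30.3 M in the number 1 libraries and 16.4 to 23.8 M in the number 2 libraries. At least 1 count was found for 20305, 22349 and 20921 genes in the number 1 libraries of the non-injected, Suv39h1mut and Suv39h1wt groups, and for 19317, 19710 and 18463 in their number 2 partners. The 2-cell marker Zfp352 stood at 199 to 593 CPM (counts scaled to an equal library size, by the TMM method), and all 7 of the 2-cell markers in the table were detected. Suv39h1 itself stood at 41.3, 28.0 and 51.2 CPM in number 1 and at 35.0, 41.6 and 38.0 CPM in number 2. The labels do not give the sequence of the injected mRNA, so this count does not check them.

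The entries with the smallest p were annotated as short RNA genes. Whether their reads came from such RNAs or from longer RNAs holding the same sequence was not tested. Among the leading 10 with higher values were 4 loci annotated as microRNA genes, and 3 of these carry a sequence in GENCODE M21, all 57 bases long. They are shown because identical sequences stood behind separate entries of the count table. Capitals mark the base at position 11, counted from the 5′ end, where the third differs from the others (G11A). The positions are on GRCm38, at chr16:11144125-11144181 (plus strand), chr9:56223715-56223771 (minus strand) and chr13:9834469-9834525 (minus strand).
mmu-mir-689-2: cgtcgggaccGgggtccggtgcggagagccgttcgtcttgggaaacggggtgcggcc
mmu-mir-2134-4 on chromosome 9: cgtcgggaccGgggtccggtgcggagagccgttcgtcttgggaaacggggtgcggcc
mmu-mir-2134-4 on chromosome 13: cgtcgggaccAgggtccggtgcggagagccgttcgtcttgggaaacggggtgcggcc

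7SK (Rn7sk, 331 bases, GRCm38 chr9:78175303-78175633, minus strand) is shown by its 5′ end. Capitals mark the 3 occurrences of GATC, written GAUC in RNA, a motif of this hairpin known for binding the protein HEXIM. No further GATC was found in the rest of the transcript.
7SK: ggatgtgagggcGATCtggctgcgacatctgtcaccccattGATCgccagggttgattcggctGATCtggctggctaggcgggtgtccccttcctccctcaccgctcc

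For messenger RNAs, base composition is shown by the start of 4 coding sequences, with every G and C in capitals. They are the 2 with the highest and the 2 with the lowest GC content of the coding sequence among the leading genes in each direction, and each line gives the first 90 bases from the ATG. Scand1 and Exoc3l2 were higher in the number 2 libraries. Nexn and Gm527 were lower. GC content over the whole coding sequence was 75.6% for Scand1 (GRCm38 chr2:156311847-156312704, minus strand) and 66.6% for Exoc3l2 (chr7:19463331-19496762, plus strand). It was 39.9% for Nexn (chr3:152236982-152266350, minus strand) and 40.3% for Gm527 (chr12:64917906-64924592, plus strand). These are extremes, and the directions overlapped in between: Smagp (54.3%) and Tmem120a (54.7%) were higher, and Dazap2 (54.2%), Asb8 (54.7%) and Afap1 (55.8%) were lower.
Scand1: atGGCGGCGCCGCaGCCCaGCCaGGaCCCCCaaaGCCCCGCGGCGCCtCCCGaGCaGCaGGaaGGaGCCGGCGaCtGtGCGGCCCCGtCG
Exoc3l2: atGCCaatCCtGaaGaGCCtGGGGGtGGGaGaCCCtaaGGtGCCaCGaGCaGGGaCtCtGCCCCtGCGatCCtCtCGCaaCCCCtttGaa
Nexn: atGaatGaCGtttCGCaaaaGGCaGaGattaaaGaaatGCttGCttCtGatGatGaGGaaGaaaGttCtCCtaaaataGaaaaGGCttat
Gm527: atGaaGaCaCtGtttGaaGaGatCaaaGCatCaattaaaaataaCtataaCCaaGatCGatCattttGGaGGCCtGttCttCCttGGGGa

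In all, 551 genes were called by library number, which is 3.12% of those tested. A call is an adjusted p under 0.05 in edgeR's quasi-likelihood test with Benjamini-Hochberg adjustment, with the condition as a block. Of them 252 (1.43%) were higher in the number 2 libraries and 299 (1.7%) lower, with median log2 fold changes of 1.64 and -1.36. All 551 moved the same way within the non-injected, the Suv39h1mut and the Suv39h1wt pair. In 500 of them the 3 number 2 values did not overlap the 3 number 1 values. Over all tested genes 39.6% moved the same way in all 3 pairs. Without overlap, 9.17% lay above and 11.2% below. The calls were drawn from these same values, so both counts only describe them and add no separate evidence. The split between directions depended on the scaling, since it was 203 higher and 397 lower with upper-quartile scaling. Scaling by total counts, tried after the data were seen, gave 81 higher and 564 lower, and moved the median log2 fold change of all genes by -0.33. Each of the 551 genes kept its sign under both scalings.

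The count of calls depended on which library was left out. It fell to 139 without the number 1 library of the non-injected group, to 281 without its number 2 library and to 215 without the number 1 library of the Suv39h1mut group, while leaving out each of the other 3 libraries gave 531 to 769. At an unadjusted p under 0.05 there were 3000 genes. The last genes inside the threshold were Oog2 (adjusted p = 0.0498, log2 fold change -1.71) and the pseudogene Tcea1-ps1 (0.0499, -2.28), and the first outside were Ppip5k2 (0.0503, -0.87) and Srm (0.0508, 2.23), all from edgeR's quasi-likelihood test.

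Calls were concentrated in abundant RNAs. None of the 4217 genes with a mean under 1 CPM was called, against 262 of the 1192 genes at 100 CPM and above (22.0%). Within-pair differences of these 1192 genes went the same way in all 3 pairs for 69.0% of genes, against 39.6% over all tested genes. Across the abundant genes, the within-pair differences correlated with Pearson's r = 0.68 (non-injected with Suv39h1mut), 0.78 (non-injected with Suv39h1wt) and 0.81 (both injected groups). Under 1 CPM these correlations were 0.062 to 0.11. Genes of one library share its depth and composition, so these are descriptions across genes and carry no p. A log2 difference of at least 1 in the same direction in every pair was found for 705 genes higher (4%) and 893 lower (5.06%), together 9.06% of those tested.

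Over all 17638 tested genes, the number accounted for 26.5% of the sum of squares of log2 CPM, the condition for 40.4% and the remainder for 33.1%. Over genes averaging 10 CPM or more, the number accounted for 40.4% with 1 degree of freedom, the 3 conditions for 38.0% with 2, and the remainder for 21.6%. On the first principal component, with 47.6% of the variance, the number 1 libraries scored -7.83 (non-injected), -51.69 (Suv39h1mut) and -43.94 (Suv39h1wt). Their number 2 partners scored 56.98, 12.12 and 34.34. The 2 numbers did not overlap on it.

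The locus mmu-mir-689-2, shown above, was the most abundant microRNA-annotated entry. It stood at 568, 533 and 249 CPM in the number 1 libraries of non-injected, Suv39h1mut and Suv39h1wt embryos and at 11729, 7489 and 10657 CPM in the number 2 libraries. Every number 2 value was above every number 1 value, and the log2 fold change was 4.53 (SE 0.30, edgeR quasi-likelihood adjusted p = 0.000173).

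The chromosome 9 copy of mmu-mir-2134-4, with the identical 57 bases, went from 57.6, 51.5 and 32.9 CPM to 896, 720.4 and 1082 CPM (log2 fold change 4.26, SE 0.28). The copy on chromosome 13, which differs by the single base, went from 63.8, 43.8 and 38.4 CPM to 373, 316 and 603 CPM (log2 fold change 3.12, SE 0.30). Neither overlapped between the numbers. A further identical copy, mmu-mir-2134-2 on chromosome 4, held only 11 to 23 counts in number 1 and 134 to 196 in number 2 and was not called (log2 fold change 3.76, SE 1.2). Reads from identical copies cannot be told apart by sequence, so how counts were split between these entries is uncertain.

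Mir5105, on chromosome 5, went from 15.7, 3.79 and 3.65 CPM to 451, 181 and 341 CPM (log2 fold change 5.65, SE 0.37, edgeR adjusted p = 0.000173). By the deposited coordinates, mmu-mir-689-2 lies inside Zc3h7a, the chromosome 9 copy of mmu-mir-2134-4 inside C230081A13Rik and Mir5105 inside Cdk8. The surrounding genes did not follow. Zc3h7a and Cdk8 were not called (log2 fold changes 0.61, SE 0.52, and 0.23, SE 0.20), and C230081A13Rik was called lower (-0.90, SE 0.18, edgeR adjusted p = 0.0271). The strand setting of the authors' counting is not given in the sources used here.

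7SK itself went from 77.2, 21.8 and 52.6 CPM in number 1 to 516, 383 and 497 CPM in number 2, a log2 fold change of 3.37 (SE 0.29, edgeR adjusted p = 0.00159). The groups did not overlap, and the Suv39h1mut pair, with the lowest number 1 value, differed most. RNase MRP RNA (RNase_MRP in the gene table) had no count in any number 1 library and 210, 69 and 163 counts in the number 2 libraries of the non-injected, Suv39h1mut and Suv39h1wt groups. With a floor of 3 counts per library in number 1, its mean was at least 66.8-fold higher in number 2. It passed the filter only through the libraries where it was high, so its call (edgeR adjusted p = 0.0359) adds no separate evidence. AY036118, annotated as a pseudogene on chromosome 17, went from 0.740, 0.192 and 0.941 CPM to 51.2, 24.2 and 38.9 CPM (log2 fold change 6.10, SE 0.58).

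**Figure D1:**
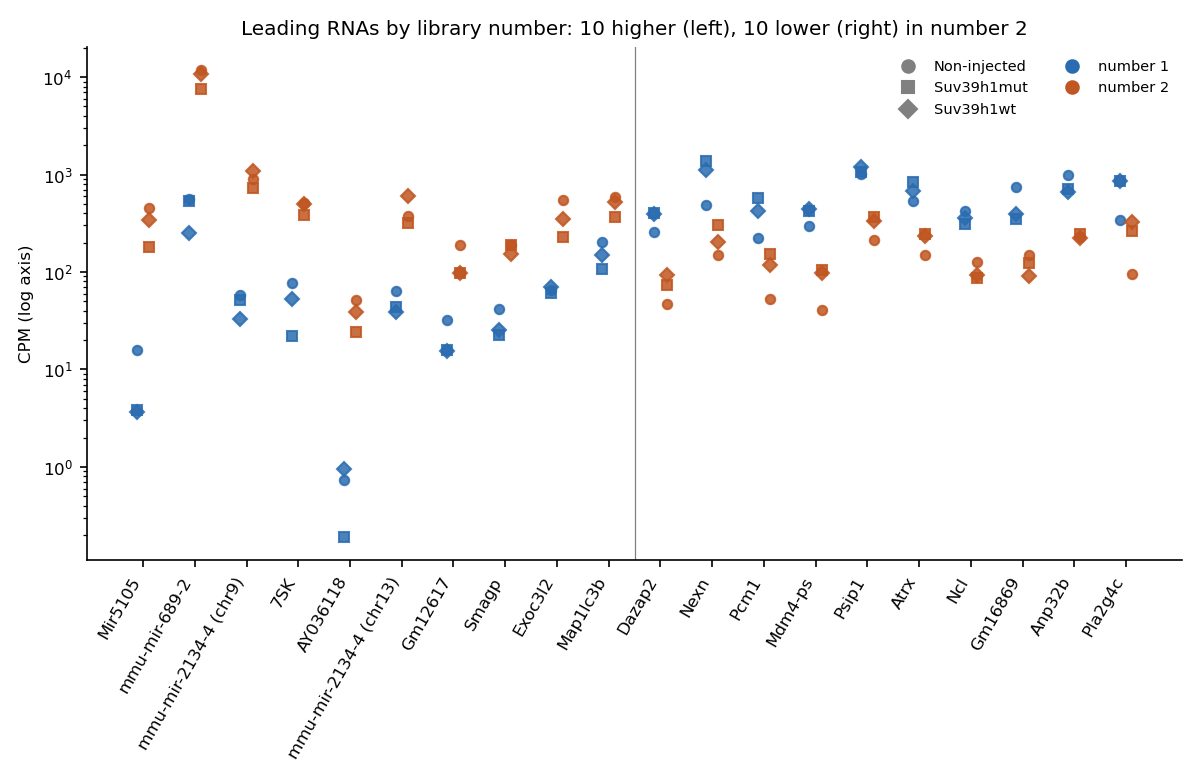
CPM on a log axis for the 10 RNAs with the smallest p among those higher (left of the line) and lower (right) in the number 2 libraries. Each point is 1 library, coloured by library number and shaped by group. In every column on the left the number 2 points lie above the number 1 points, from AY036118 near 1 CPM to mmu-mir-689-2 near 10657 CPM.

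As whole classes, microRNA-annotated loci took 0.171%, 0.100% and 0.0690% of gene counts in the number 1 libraries and 1.3%, 0.959% and 1.09% in number 2, a ratio of means of 9.82. In number 2 most of these counts lay in the single entry mmu-mir-689-2 (383088, 353969 and 353657 counts). Of the 76 tested entries of the class, 47 were higher by sign and 5 were called, all higher, beside 1.43% of all tested genes. The misc_RNA class, which holds 7SK and RNase MRP, took 0.0131% ± 0.00404 (SD, n = 3) and 0.05% ± 0.00646. Both were higher in number 2 in 3 of 3 pairs. Nuclear protein-coding genes went the other way, from 60.1% ± 2.83 to 42.8% ± 4.70, lower in all 3 pairs. Most of that difference mirrored the mitochondrial share described next, since outside the mitochondrial counts nuclear protein-coding genes took 96.5% and then 93.0%. Not every short RNA class was higher. The snoRNA share, of small nucleolar RNAs that guide RNA modification, was 0.00866% and then 0.00656% of counts, and the snRNA share, of spliceosomal RNAs, 0.00442% and then 0.00319%. Outside the mitochondrial counts the snoRNA share was 0.0140% and then 0.0143% and the snRNA share 0.00710% and then 0.00686%, each higher in 1 of 3 pairs, with an exact sign-flip permutation p of 1 for both. With 3 pairs an exact two-sided sign-flip permutation test cannot go below p = 0.25, which is the value it gave for each of these classes as a share of all gene counts.

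**Figure D2:**
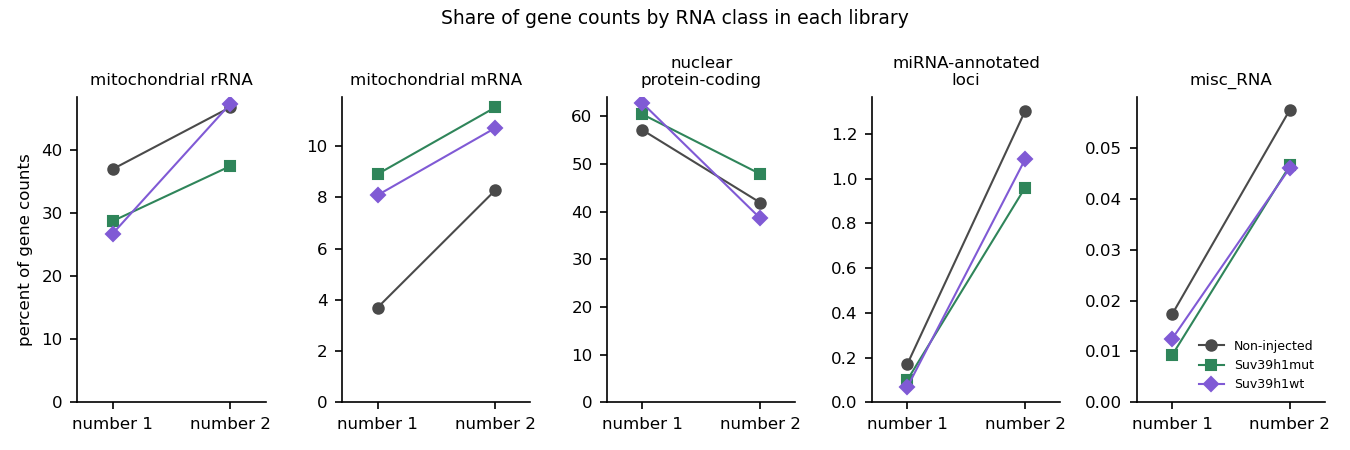
Percent of gene counts taken by 5 RNA classes in each library. Lines join the 2 libraries of a condition, and each panel has its own axis from 0. Mitochondrial rRNA, mitochondrial mRNA, microRNA-annotated loci and misc_RNA were higher in number 2 in all 3 pairs and nuclear protein-coding genes lower.

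Mitochondrially encoded RNA took 37.7% ± 2.92 (SD, n = 3) of gene counts in number 1 and 54.0% ± 4.62 in number 2 (exact sign-flip permutation p = 0.25, the smallest possible with 3 pairs). The increase sat mainly in the large ribosomal RNA of the mitochondrion. Its gene, mt-Rnr2, held 22.1%, 15.1% and 14.7% of counts in number 1 and 33.8%, 26.8% and 34.3% in number 2. The small ribosomal RNA gene mt-Rnr1 held 14.8%, 13.6% and 12% and then 13.0%, 10.7% and 13.0%, so its ranges overlapped. In the fit, mt-Rnr2 was called (log2 fold change 1.23, SE 0.19, edgeR adjusted p = 0.0118) and mt-Rnr1 was not (0.20, SE 0.19, adjusted p = 0.685). The ratio of mt-Rnr2 to mt-Rnr1 counts, which needs no scaling between libraries, was 1.49, 1.11 and 1.23 in number 1 and 2.61, 2.50 and 2.65 in number 2, without overlap.

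The 13 proteins encoded by the mitochondrial genome are subunits of the respiratory chain and ATP synthase. All 13 messengers were higher in number 2 by sign and 8 were called, beside 1.43% of all tested genes called higher. Their median log2 fold change was 1.04, beside -0.08 over all tested genes. mt-Atp8, an ATP synthase subunit, went from 197, 638 and 709.6 CPM to 2931, 1852 and 2701 CPM (log2 fold change 2.43, SE 0.39). mt-Nd2, of complex I, went from 3322, 9124 and 8808 CPM to 17995, 21424 and 26158 CPM (1.74, SE 0.22). Neither gene's groups overlapped, whereas those of mt-Co1, of complex IV, did: 3616, 11980 and 8070 CPM and then 4937, 8906 and 9888 CPM (0.11, SE 0.19, edgeR adjusted p = 0.859). Under scaling by total counts 12 of the 13 remained higher by sign and 4 were called.

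Messengers of the cytosolic ribosome were higher in number 2 as a group. Of all tested genes 1.43% were called higher. Of 47 large-subunit protein genes, all tested, 47 were higher by sign and 16 were called, with a median log2 fold change of 1.04. Of 33 listed small-subunit genes, 32 were tested, 30 were higher by sign and 14 were called, with a median of 1.16. The exceptions by sign were Rps27a (-0.28, SE 0.36) and Rps4x (-0.06, SE 0.42), neither called. Within pairs the large-subunit median was 1.01, 1.17 and 1.05 and the small-subunit median 0.97, 1.45 and 1.08, in the order non-injected, Suv39h1mut, Suv39h1wt. The number 2 values lay above all number 1 values for 24 of the 47 (51.1%) and 18 of the 32 (56.2%), beside 9.17% of all tested genes above and 11.2% below. Scaling by total counts left 43 of 47 and 28 of 32 higher by sign, with 3 and 7 called.

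Among the single genes, Rps19, a 40S subunit protein, went from 26.7, 15.5 and 15 CPM to 204, 52.4 and 111 CPM (log2 fold change 2.53, SE 0.32, edgeR adjusted p = 0.00652). Rpl34, of the 60S subunit, went from 9.62, 4.88 and 10.8 CPM to 47.5, 33.7 and 92.3 CPM (2.73, SE 0.37, adjusted p = 0.0076). Neither overlapped between numbers. Rpl13a did, at 166, 54.9 and 95.7 CPM and then 132, 81.6 and 173 CPM (0.37, SE 0.28, adjusted p = 0.583). Many ribosomal protein genes have processed pseudogenes, so how reads were shared between gene and copies is uncertain here.

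Nuclear genes for respiratory chain and ATP synthase subunits were higher by sign in 50 of 77 cases, with a median log2 fold change of 0.57. Of the 77, 5 were called, all higher, beside 1.43% of all tested genes. Under scaling by total counts the median was 0.23, with 43 of 77 higher and none called. Cox4i1, of complex IV, went from 34.6, 3.72 and 4.53 CPM to 65.9, 27.1 and 58.9 CPM, and its groups overlapped (2.52, SE 0.55, edgeR adjusted p = 0.0391). The ferritin chains Ftl1 (log2 fold change 1.69, SE 0.33) and Fth1 (0.90, SE 0.19), which store iron, and Pfdn5, a prefoldin subunit (1.98, SE 0.31), were called higher, while Hspd1, a mitochondrial chaperonin (-2.14, SE 0.29), and Tuba1c, an alpha-tubulin (-1.51, SE 0.35), were called lower. Glycolysis genes had a median of -0.02, and edgeR called none of 18, with 5 at an unadjusted p under 0.05 and 4 called by DESeq2. Of 36 proteasome subunit genes edgeR called none, with 6 at an unadjusted p under 0.05 and 3 called by DESeq2, and their median was 0.21. Actb, cytoplasmic actin, went from 30.3, 34.4 and 30.5 CPM to 125, 95.2 and 139.6 CPM (1.90, SE 0.27, adjusted p = 0.00999), without overlap.

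Translation factors did not move as 1 group: 3 of 65 were called higher and 2 lower, with a median of -0.05. Of all tested genes 1.43% were called higher and 1.7% lower. Eif5a, which helps the ribosome past difficult peptide bonds, went from 83.7, 157 and 106 CPM to 612, 443 and 413 CPM (log2 fold change 2.11, SE 0.27). Eif5b, which joins the ribosomal subunits at initiation, went from 572, 579.9 and 472 CPM to 182, 218 and 131 CPM (-1.64, SE 0.19). Both had edgeR adjusted p under the threshold (0.00652 and 0.00422), and neither overlapped between numbers.

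Replicative histone genes, whose messengers end in a stem-loop in place of a poly(A) tail, were higher by sign in 32 of the 37 that passed the filter, out of 58 in the table. Their median log2 fold change was 2.89, also with the 2 genes at 0 in all number 1 libraries set to their bound. A gene could pass the filter through the libraries where it was high, and the 9 genes with at least 10 counts in each library had a median of 2.15, with 8 higher by sign. Most were scarce, with a median level of 0.984 CPM. Only the linker histone Hist1h1a was called, beside 1.43% of all tested genes called higher. No gene of the list was called with upper-quartile or total-count scaling. Hist1h1a went from 18.5, 7.53 and 7.27 CPM to 39.9, 31.8 and 41.9 CPM (1.91, SE 0.44, edgeR adjusted p = 0.0485). In 14 of the 37 (37.8%) all number 2 values lay above all number 1 values, and in none below. Of all tested genes 9.17% lay above and 11.2% below. The 37 are the genes that passed that same filter, so this share adds no separate evidence.

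Among the genes chosen by the size of their smallest within-pair difference, Scand1, a SCAN-domain protein gene, went from 2.07, 1.53 and 1.04 CPM to 36.0, 14.1 and 30.3 CPM (log2 fold change 4.06, SE 0.60). Exoc3l2 and Smagp were instead among the 10 RNAs with the smallest p on the higher side. Exoc3l2, related to a subunit of the exocyst that tethers secretory vesicles, went from 65.4, 60.4 and 69.3 CPM to 551, 231 and 349.6 CPM (2.45, SE 0.26). Smagp, a small membrane glycoprotein gene, went from 41.5, 22.4 and 25.4 CPM to 189, 189 and 154 CPM (2.62, SE 0.27). In none of these 3 genes did the numbers overlap. Map1lc3b, whose product marks autophagosome membranes, and Tmem120a, a membrane protein gene, completed the protein-coding genes of the leading lists, with log2 fold changes of 1.70 (SE 0.19) and 3.31 (SE 0.48).

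The leading genes on the lower side included messengers of nuclear and structural proteins. Psip1, a chromatin reader of methylated histone H3, went from 1021, 1057 and 1195 CPM in number 1 to 211, 367 and 332 CPM in number 2 (log2 fold change -1.88, SE 0.20, edgeR adjusted p = 0.00304). Atrx, a chromatin remodeller of heterochromatin, went from 532, 843 and 683 CPM to 149, 246 and 236 CPM (-1.72, SE 0.18, adjusted p = 0.00304). Every number 2 value of both genes was below every number 1 value. Nexn, an actin-binding protein gene whose coding start is shown above, went from 486, 1366 and 1113 CPM to 151, 304 and 204 CPM (-2.10, SE 0.20).

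The same held for Pcm1, a scaffold of the satellites around centrosomes (224, 580.2 and 419 CPM, then 52.9, 154 and 118 CPM), and for Ncl, the nucleolar protein nucleolin (419, 309.6 and 357 CPM, then 128, 87.4 and 93.0 CPM). Their log2 fold changes were -1.94 (SE 0.20) and -1.83 (SE 0.20). Dazap2 had the smallest p on this side, at 260.1, 403 and 392 CPM and then 46.5, 73.9 and 93.2 CPM (-2.33, SE 0.21, edgeR adjusted p = 0.00194). Among the genes with the largest smallest within-pair difference were Zfp329, a zinc finger gene (-3.61, SE 0.58), Lancl2 (-3.64, SE 0.62) and Snw1, a splicing and transcription cofactor (-2.83, SE 0.49), each without overlap.

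Of the 22 tested chromatin remodelling ATPases, enzymes that move or exchange nucleosomes, 15 were lower by sign and 4 were called lower: Atrx, Chd9, Chd4 and Ep400. None was called higher, and the median log2 fold change was -0.58. Of all tested genes 1.7% were called lower and 1.43% higher. Chd4, the ATPase of the NuRD complex, went from 109, 114 and 143 CPM to 55.3, 41.6 and 71.5 CPM (-1.15, SE 0.25, edgeR adjusted p = 0.0379). In the H3K9 methylation machinery, 15 of 23 genes were lower by sign, with a median of -0.58, and edgeR called 1 in each direction. An unadjusted p under 0.05 was found for 11, and DESeq2 called 8, beside 3000 and 2394 of all 17638 tested genes. In 7 of the 23 (30.4%) all number 2 values lay below all number 1 values, and in 3 (13.0%) above. Of all tested genes 11.2% lay below and 9.17% above. Trim28, the KRAB zinc finger corepressor, rose from 83.0, 59.4 and 64.7 CPM to 255, 129.6 and 161 CPM (1.35, SE 0.23), and Suv39h2, the sister enzyme of the injected one, fell from 85, 140.3 and 137 CPM to 42.3, 62.4 and 66.8 CPM (-1.07, SE 0.24). Suv39h1 did not pass the test (-0.03, SE 0.34, adjusted p = 0.983).

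Members of the oocyte Nlrp and Fbxw families were lower in number 2. Of all 17638 tested genes, 9318 were lower by sign and 1.7% were called lower. All 11 tested oocyte Nlrp genes, of which Nlrp5 is a component of the subcortical maternal complex, were lower by sign and 5 were called, with a median log2 fold change of -1.01. Nlrp9b went from 55.4, 402 and 249 CPM to 25.4, 39.6 and 41.5 CPM (-2.36, SE 0.39, edgeR adjusted p = 0.0146), and Nlrp14 from 106, 293 and 176 CPM to 43.6, 93.8 and 89.7 CPM (-1.30, SE 0.23). Nlrp9b and Nlrp14 did not overlap between numbers, although their levels differed between conditions. The 12 tested oocyte Fbxw genes, which encode F-box proteins, were also all lower by sign, with 2 called (Fbxw24 and Fbxw28) and a median of -1.08. Other oocyte families went both ways by sign. Of 14 oogenesin and PRAME-like genes 8 were lower and 3 were called lower (Oog1, Oog2 and Oog3), with a median of -0.71, and 4 of 5 Obox genes and 2 of 3 Tdpoz genes were lower by sign with none called by edgeR, against 2 and 1 at an unadjusted p under 0.05 and as many called by DESeq2. The genes of such families resemble each other, and reads may have been shared between them.

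Stored transcripts as such did not share a direction. Dppa3, a maternal factor that protects DNA methylation, fell from 1485, 2059 and 2537 CPM to 740.2, 928 and 789 CPM (log2 fold change -1.28, SE 0.18, edgeR adjusted p = 0.00999). Oosp1, an oocyte-secreted protein gene, rose from 225, 452 and 425 CPM to 557, 1020 and 871 CPM (1.17, SE 0.18, adjusted p = 0.0103), and the oocyte linker histone H1foo rose as well (1.57, SE 0.30). Gdf9, an oocyte growth factor, was at 0.03 (SE 0.26). Of the 2-cell genes linked to MERVL, an endogenous retrovirus switched on at this stage, Rfpl4 was the only gene of 26 called. It was lower (-1.80, SE 0.24), and 1.7% of all tested genes were called lower.

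**Figure D3:**
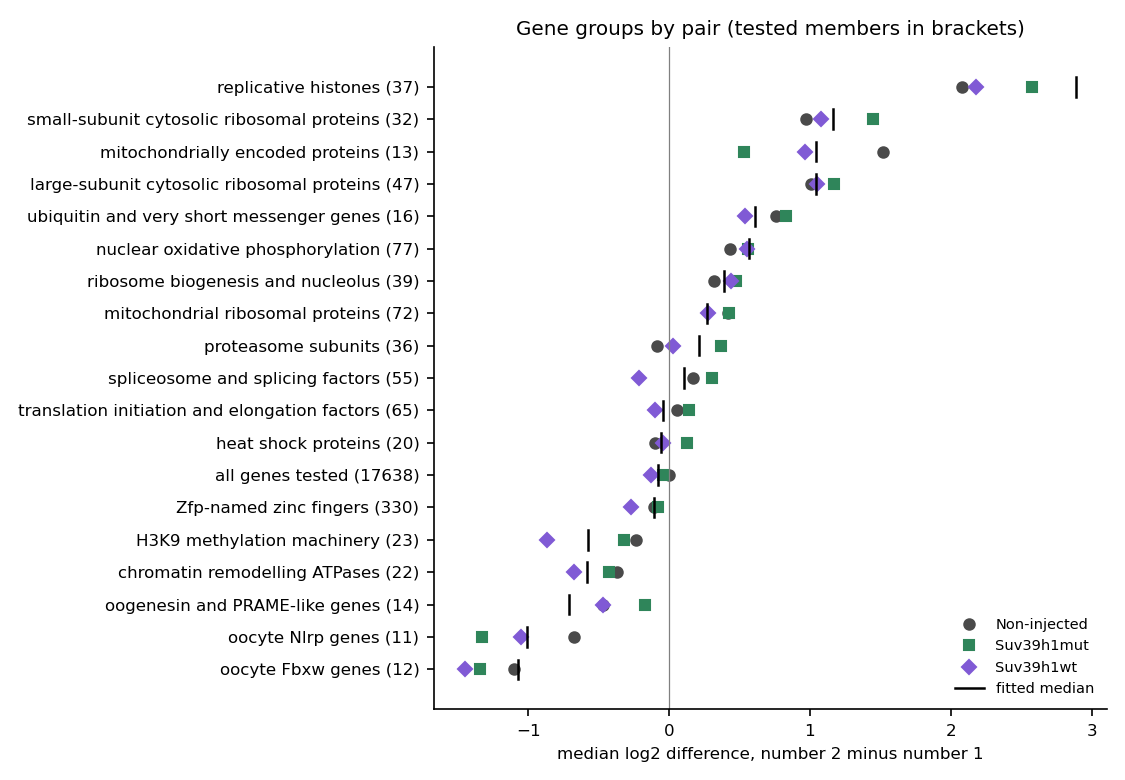
Median log2 difference, number 2 minus number 1, of gene groups and of all genes tested, as points for the 3 pairs and as a bar for the median of the fitted log2 fold changes. Histone, ribosomal protein and mitochondrially encoded groups lay above 0 in all 3 pairs and the oocyte Nlrp and Fbxw groups below 0, while all genes tested lay near 0.

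Markers of other cell types were scarce, and the blood and trophectoderm sums were higher in number 2. Blood markers, 5 of 11 tested and none called, summed to 2.51 to 4.64 CPM in number 1 and 11.4 to 23.3 CPM in number 2, and trophectoderm markers, 6 of 7 tested and none called, to 14.8 to 25.4 and 38.7 to 40.7 CPM. Different single genes made up much of these sums. In number 2 of non-injected, Suv39h1mut and Suv39h1wt, the blood marker Cd74 stood at 14.6, 10.4 and 0 CPM. The trophectoderm markers Tead4 and Krt18 stood at 31.8, 28.6 and 4.85 CPM and at 1.96, 2.12 and 22.7 CPM. By sign, 1 of the 5 blood and 2 of the 6 trophectoderm markers were lower. Cumulus and granulosa markers summed to 27.6 to 40.7 and 19.0 to 44.2 CPM. Sperm markers summed to at most 2.50 CPM in any library. No listed marker in the table was at 0 in all 6 libraries. Their part in the differences above was not tested. In bulk RNA, fewer cells of a type and less RNA per cell cannot be told apart.

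Base composition ran through the whole comparison. GC content of the longest GENCODE transcript was available for 16683 tested genes (94.6%). Restricted to genes averaging 10 CPM or more, the median log2 fold change was -0.39 in the 507 genes under 40% GC, -0.13 in the 1983 genes from 45% to 50%, and 0.94 in the 132 genes at 60% and over. In the lowest bin 12 genes (2.37%) were called higher and 37 (7.30%) lower, and in the highest 20 (15.2%) were called higher and none lower. Of all 6820 tested genes averaging 10 CPM or more, 538 were called in either direction. The medians of the lowest and highest bins were -0.53 and 1.23 in the non-injected pair, -0.19 and 0.63 in the Suv39h1mut pair and -0.46 and 0.79 in the Suv39h1wt pair. Spearman's rho between GC and log2 fold change was 0.38 across 6708 such genes and 0.23 across all with a value, as a description across genes that share libraries and depth.

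**Figure D4:**
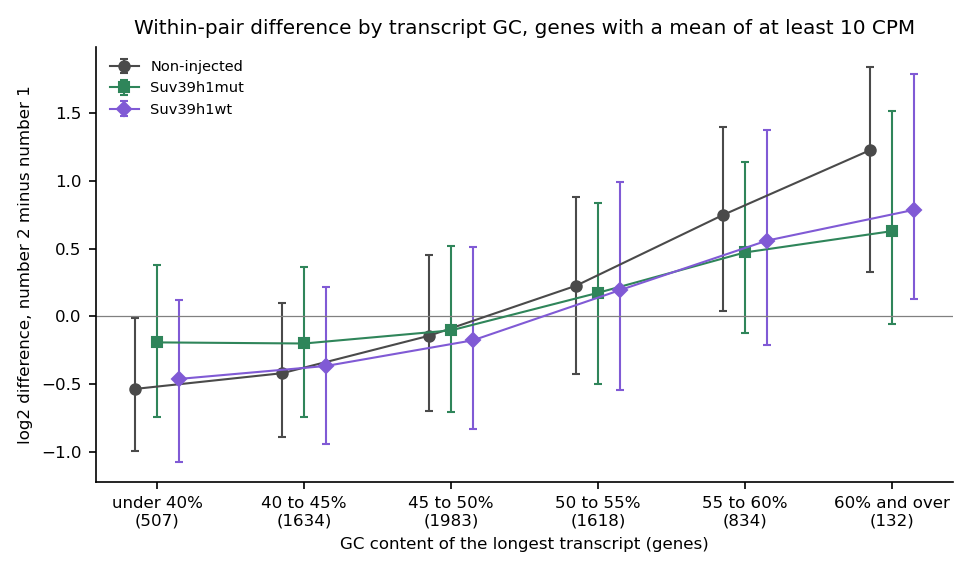
Within-pair log2 difference, number 2 minus number 1, by GC content of the longest transcript for genes with a mean of at least 10 CPM. Points are medians, bars run from the first to the third quartile, and the number of genes is in brackets. All 3 lines rise from below 0 under 40% GC to between 0.63 and 1.23 at 60% and over, and the quartile ranges of neighbouring bins overlap.

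Transcript length ran the other way, more weakly. By the gene length in the deposited table, rho was -0.09 over all tested genes and -0.19 at a mean of at least 10 CPM. Of the 5372 tested genes under 1 kb, 129 (2.40%) were called higher and 51 (0.95%) lower. Of the 972 over 5 kb, 4 (0.41%) were called higher and 41 (4.22%) lower. Over all tested genes these shares were 1.43% higher and 1.7% lower. The GC gradient was present within length classes. At a mean of at least 10 CPM it ran from -0.07 (under 40% GC) to 1.13 (60% and over) in transcripts under 2 kb, and from -0.39 to 0.77 in those over 4 kb. Mitochondrially encoded messengers did not follow it, since they have 31.9% to 41.1% GC and were higher in number 2.

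Detection differed as well. Genes with at least 10 counts in number 1 and none in number 2 numbered 950 in the non-injected, 1372 in the Suv39h1mut and 1457 in the Suv39h1wt pair, against 646, 468 and 440 the other way round. Counts outside the mitochondrial genome were also fewer in number 2 in each pair, as given above. In every pair at once, 23 genes were seen only in number 1 and 4 only in number 2, where seen means at least 10 counts. These 4 were RNase MRP RNA, Cby3, Fabp6, a bile acid binding protein gene, and Nr4a1, an immediate early nuclear receptor gene, and they are named after their values were seen.

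The deposited repeat table gave a second count of the 4 injected libraries, by repeat family. It has no non-injected library, so that each value rests on 2 pairs. Of 1082 families tested, 32 were called (2.96%), 28 higher (2.59%) and 4 lower (0.37%) in number 2, with edgeR's quasi-likelihood test and the condition as a block. Scaling by total counts moved the median of all families by -0.65 and gave 5 higher and 181 lower, so that only families far from 0 have a direction that does not rest on the scaling.

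Cytoplasmic ribosomal RNA led the list. The small-subunit family SSU-rRNA_Hsa, named for a human reference sequence, held 292405 counts in Suv39h1mut and 281248 in Suv39h1wt library 1, and 3063324 and 2885256 in library 2. That was 1.03% and 1.11% of repeat counts and then 10.7% and 12.4% (log2 fold change 4.09, SE 0.17). The large-subunit family LSU-rRNA_Hsa held 5.11% and 6.23% and then 13.3% and 15.6% (2.01, SE 0.16). The 5S family, of the small ribosomal RNA made by RNA polymerase III, did not follow and was not called (-0.53, SE 0.27, edgeR adjusted p = 0.396).

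7SK, counted a second time here, held 5181 and 7631 counts in library 1 and 41041 and 37082 in library 2 (log2 fold change 3.35, SE 0.19). 7SLRNA held 1743 and 1367 and then 3921 and 4133 counts (2.10, SE 0.36, edgeR adjusted p = 0.00372). Neither overlapped between the numbers. Among the 9 families of U-named small nuclear and nucleolar RNAs, 8 were lower by sign and none was called by edgeR, and their median was -0.72. U6, of the spliceosome, was at -0.72 (SE 0.27, adjusted p = 0.198).

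Few families of low sequence complexity were called. Of 256 tested families that repeat a short unit, 3 were called higher and 1 lower, beside 2.59% and 0.37% of all families. These calls describe single families and not the class. GC_rich, a class of GC-rich stretches, held 2634 and 2072 counts in library 1 and 7109 and 6952 in library 2 (log2 fold change 2.30, SE 0.27), and (CGG)n was called higher (1.40, SE 0.33). (TAGA)n held 23322 and 23435 and then 6863 and 4557 counts and was called lower (-1.35, SE 0.21). (CTG)n (0.75, SE 0.15) and (TTGG)n, with 50% GC (1.15, SE 0.26), were also called higher, and CT-rich was called lower (-0.63, SE 0.15). Among all families that repeat a short unit, the median was 0.06 for units without G or C. For units with some GC it was -0.23 under 50%, -0.23 at 50% and 0.29 over 50%. GSAT_MM, the major satellite of mouse pericentromeres and a region where H3K9 methylation is deposited, held 83478 and 96665 counts in library 1 and 26381 and 15498 in library 2 (-1.44, SE 0.21, edgeR adjusted p = 0.00515). It was lower in both pairs, with log2 differences of -0.97 in Suv39h1mut and -1.90 in Suv39h1wt, while the second satellite family MMSAT4 was not called (0.56, SE 0.16, adjusted p = 0.0758).

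Of the transposable elements, the rodent SINE families B2_Mm1a, B2_Mm1t and B2_Mm2 were called higher, led by B2_Mm1a (1.54, SE 0.25), whose share of repeat counts was 0.942% and 1.84% and then 2.46% and 2.43%. L1Md_T, a young LINE-1 family, was called higher at 1.16 (SE 0.15), with 0.654% and 0.568% and then 0.778% and 0.960% of repeat counts. LINE-1 as a class did not follow: 66 of 106 families were lower by sign. Of the 106, 3 were called higher and none lower, beside 2.59% and 0.37% of all families. The class took 13.0% and 10.0% and then 7.95% and 7.06% of repeat counts. MERVL-int and its LTR MT2_Mm, the retrovirus active at the 2-cell stage, were called higher at 0.73 (SE 0.17) and 0.83 (SE 0.16). The share of MERVL-int, however, was 10.4% and 12.5% in the Suv39h1mut pair and 11.6% and 10.7% in the Suv39h1wt pair, so that its direction in Suv39h1wt rested on the scaling. The share of B2_Mm2 likewise was 2.33% and then 1.94% in the Suv39h1wt pair, and that of B1_Mus2 was 1.03% and then 0.953% in the Suv39h1mut pair. Under scaling by total counts the fitted values of B2_Mm2 and B1_Mus2 turned to -0.02 and -0.03.

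**Figure D5:**
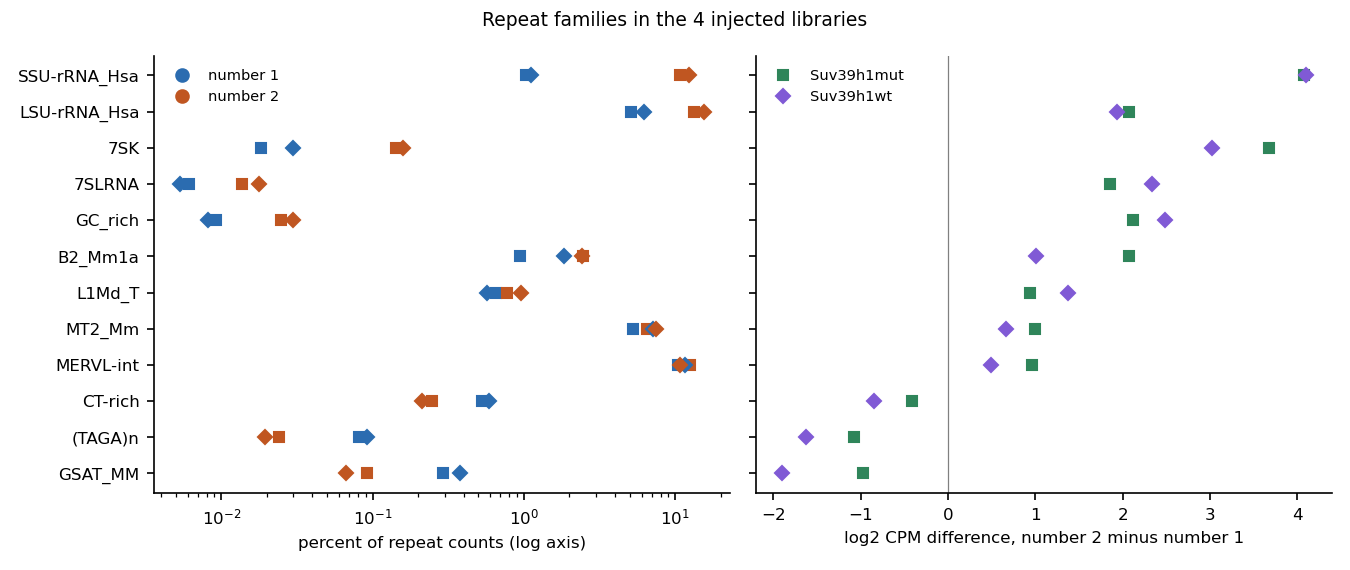
Repeat families in the 4 injected libraries: percent of all repeat counts on a log axis, coloured by library number (left), and log2 CPM difference, number 2 minus number 1, for the 2 pairs (right). SSU-rRNA_Hsa and 7SK lay farthest to the right, above 3 in both pairs, and GSAT_MM and (TAGA)n at or below -0.97 in both.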

How the data were processed

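RNA was measured in 6 libraries of mouse 2-cell embryos. Per the submitters' processing notes, base calling used CASAVA 1.8.2, and TopHat2 2.0.14, Bowtie and HTSeq 0.6.1 were used with mm9; these notes give no order, and the annotation release, strand setting and assignment of reads to repeats are not given in the sources used here. The authors deposited raw read counts per gene and, for the 4 injected libraries, per repeat family. The authors' normalized signal (counts divided by 1 size factor per library) served only to check gene lengths.

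The counts were fitted with edgeR 4.0.16 (R 4.3.3, limma 3.58.1) by the robust quasi-likelihood test with TMM scaling. The condition was a block and the library number the tested term. This left 2 residual degrees of freedom for genes and 1 for repeat families. Genes were filtered by filterByExpr per condition with a minimum count of 10, and p-values were adjusted by Benjamini-Hochberg over all 17638 genes at a threshold of 0.05. The SE of a log2 fold change was its size divided by the square root of the F statistic. Within-pair differences used log2 CPM with a prior count of 2. The procedure was checked on simulated counts. DESeq2 1.42.0 was an alternative.

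The libraries were paired by condition, since each condition has 1 library of each number. Named genes were the 10 per direction with the smallest p (mean of at least 1 CPM), the 10 per direction with the largest smallest within-pair difference (mean of at least 10 CPM), and per list the 2 smallest p and the most abundant member; a few others are named as exceptions or neighbours. The comparison, members and lists were chosen with earlier results of these data known. Sequences and transcript GC are from GENCODE M21 on GRCm38, matched by Ensembl ID, while gene overlaps use the deposited mm9 coordinates. Depth is given in total counts, and floors cover counting error only.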

Additional observations from a re-analysis of the deposited data

Results flagged for a closer look

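Mitochondrial tRNAs had a median within-pair log2 difference, number 2 minus number 1, of -0.51 in Suv39h1mut, 1.02 in Suv39h1wt and 0.29 in non-injected embryos. They were scarce, with a median level of 0.703 CPM, and none of the 17 tested was called by edgeR or DESeq2 or had an unadjusted p under 0.05, beside 3.12% of all genes called by edgeR. Small nucleolar and small nuclear RNAs had a median of 0.65 in Suv39h1mut, -0.02 in Suv39h1wt and -1.06 in non-injected embryos, at a median level of 0.516 CPM. Of 26 tested, edgeR called none, 1 had an unadjusted p under 0.05 and DESeq2 called 1. The opposite directions drew attention to both groups, and the difference between the conditions was not tested.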

How the results depend on the processing

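The 551 calls became 1005 with no filter, 1238 with at least 10 counts in each library and 2394 with DESeq2. Leaving the condition out of the fit as a block gave 36 calls for genes and 9 for repeat families. The cause of that drop was not tested. Leaving out 1 library at a time gave 139 to 769 calls. Scaling by total counts and the GENCODE transcript length were added after seeing the data. The large-subunit ribosomal protein median was 0.94 under upper-quartile and 0.69 under total-count scaling (0.91 to 1.11 with 1 library left out), and the small-subunit median was 0.82 under total-count scaling (0.94 to 1.34). The nuclear oxidative phosphorylation median was 0.47 and 0.23 (0.35 to 0.64). The histone median was 2.15 with at least 10 counts in each library and 2.55 under total-count scaling (2.55 to 2.98). Total-count scaling gave -1.36 for Nlrp genes (-1.18 to -0.84), -1.42 for Fbxw genes (-1.31 to -1.04) and -0.93 for remodelling ATPases (-0.64 to -0.50). The mitochondrially encoded median was 0.76 to 1.24. Genes moving alike numbered 353 at a log2 difference of at least 2 and 6979 by sign alone. The length correlation was -0.19 at a mean of at least 10 CPM. Repeat calls became 58 with RLE, 186 with total-count scaling and 51 with no filter, and B1_Mus2 (-0.0277) and B2_Mm2 (-0.0171) changed sign under total-count scaling. The cause was not tested. Leaving out a library of the repeat table leaves 1 pair and no test, so it was not run. Of the 6601 genes from 1 to 10 CPM edgeR called 13.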
